A study of Mus musculus with 6 samples.

Results

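The nuclear genes of oxidative phosphorylation were examined in whole fetal mouse lung. They were selected by symbol from the platform annotation: names starting with Nduf, Uqcr, Cox4, Cox5, Cox6, Cox7, Cox8 or Atp5, together with Sdha, Sdhb, Sdhc, Sdhd and Cyc1. Only probe sets with a single symbol were taken, 180 in all, and each gene was read from the probe set with the highest mean log2 signal over the 6 arrays. This gave 91 of 18193 genes with such a probe set: 34 subunits of complex I, 4 of complex II, 9 of complex III, 17 of complex IV, 17 of complex V, the pair Ndufa4 and Ndufa4l2, and 8 complex I assembly factors named Ndufaf. The rule thus takes in genes that are not subunits, and it used no measured difference between the groups.

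Oxidative phosphorylation takes place in the inner mitochondrial membrane. Complex I (NADH dehydrogenase) and complex II (succinate dehydrogenase) pass electrons to ubiquinone, complex III (cytochrome bc1) passes them to cytochrome c, and complex IV (cytochrome c oxidase) passes them to oxygen; complexes I, III and IV pump protons, and complex V (ATP synthase) uses the gradient to make ATP. Most subunits are encoded in the nucleus and expressed in nearly every cell, while complex IV also has tissue-restricted paralogues, such as the heart and skeletal muscle forms Cox6a2, Cox7a1 and Cox8b and the lung form Cox4i2. In alveolar type II cells mitochondria also supply the citrate from which surfactant lipid is built.

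All 6 samples were total RNA of whole lung at E18.5, shortly before birth, from mice of a mixed FVB/N and B6 background. In the 3 samples titled ko, Scap, the gene of the SREBP cleavage-activating protein, had been deleted in respiratory epithelial cells; the 3 others are labelled control. The promoter driving the deletion, the alleles carried by the controls and whether a sample is 1 animal are not given in the sources used here. If the replicates of a group came from the same animals, the p-values measure only technical spread. If each is a pool of different animals, the p-values measure the spread between pools. Whole lung mixes cell types, so fewer cells of a type and less RNA per cell cannot be told apart.

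Array medians lay between 490.9 and 530.5 signal units. The lung markers Sftpc (surfactant protein C) and Scgb1a1 (club cell secretoglobin) read at least 57824 on every array. Scap read 7264, 4195 and 3080 on the control arrays and 1847, 3286 and 2702 on the Scap-deleted arrays, so the groups overlapped (exact two-sided permutation p = 0.2, where 0.1 is the smallest that 3 against 3 arrays allow). Its log2 difference was -0.84, or 55.9% of control (SE 0.33, limma unadjusted p = 0.0371, adjusted p = 0.808). A second, far dimmer Scap probe set stood at 75.6% of control (exact permutation p = 0.8). Both arrays numbered 3 stood apart from the other 4 on the leading principal component, which held 36.6% of the variance. The ratio of the 3′ to the 5′ control probe set, a sign of RNA integrity, ranged from 0.744 to 0.846 for Gapdh and from 1.28 to 1.32 for Actb over the 6 arrays. With 3 arrays a group, their number limits how precise any value below can be.

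The oxidative phosphorylation genes read at nearly the same level in whole lung of both groups. Scap was deleted in respiratory epithelial cells, while other cells of the lung also add to these signals. A change confined to epithelial cells would therefore appear smaller here, and it was not measured apart. Of the 91 genes, 85 passed the brightness limit (a mean signal of at least 497.8, the median of all probe sets) and were tested together with the rest of the 10972 genes above it. None was called by limma at an adjusted p of 0.05 (Benjamini-Hochberg over 10972 genes), where 0.00911% of all genes tested, a single gene, were called. At an unadjusted p of 0.05, 3 of the 85 genes (3.53%) passed, against 5.92% of all genes tested. Ndufb7 and Cox6a2 were higher in Scap-deleted lung, where 2.88% of all genes were, and Ndufa4l2 was lower, where 3.04% were. With the replicate number as a block the count was 5, adding Cox7c and Uqcr10, against 8.7% of all genes. Without control replicate 1 none of the 3 genes passed and Ndufb1 alone did, against 4.9% of all genes. Without Scap-deleted replicate 1 the count was 5 (Atp5md, Cox4i2, Cox6a2, Cox7c and Ndufb7), against 4.93%. Positive differences were seen in 50 genes and negative ones in 35; most were smaller than their SE, and of the 24 genes above it (28.2%, beside 37.1% of all genes tested) 16 were positive and 8 negative. The median log2 difference (Scap-deleted minus control) was 0.02, or 101.1% of control, beside 0.01 over all genes tested.

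The spread of these genes sets how far that can be read. Their median SE was 0.10 on the log2 scale and their median within-group SD was 0.09, beside 0.12 and 0.15 over all genes tested. Brighter genes vary less on these arrays, and among the 6624 genes above the 75th percentile of signal (1819), which include 76 of the 85, the median within-group SD was 0.12. The 95% interval of the difference lay inside ±0.5 log2 for 75 of the 85 genes (88.2%, beside 70.5% of all genes tested). An absolute log2 difference over 0.2 was seen in 10 of the 85 genes (11.8%), beside 19.9% of all genes. Above the 75th percentile of signal it was seen in 7.89% of the 76 genes, beside 13.3% of the 6624. There 2.63% of the 76 passed a limma unadjusted p of 0.05, beside 4.51% of the 6624. Differences inside the 95% intervals could not be resolved with 3 arrays per group. The intervals are not adjusted for the number of genes, so larger differences could also go uncalled. Cox6a2 and Ndufb7 had intervals that exclude 0, and neither was called.

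**Figure D1:**
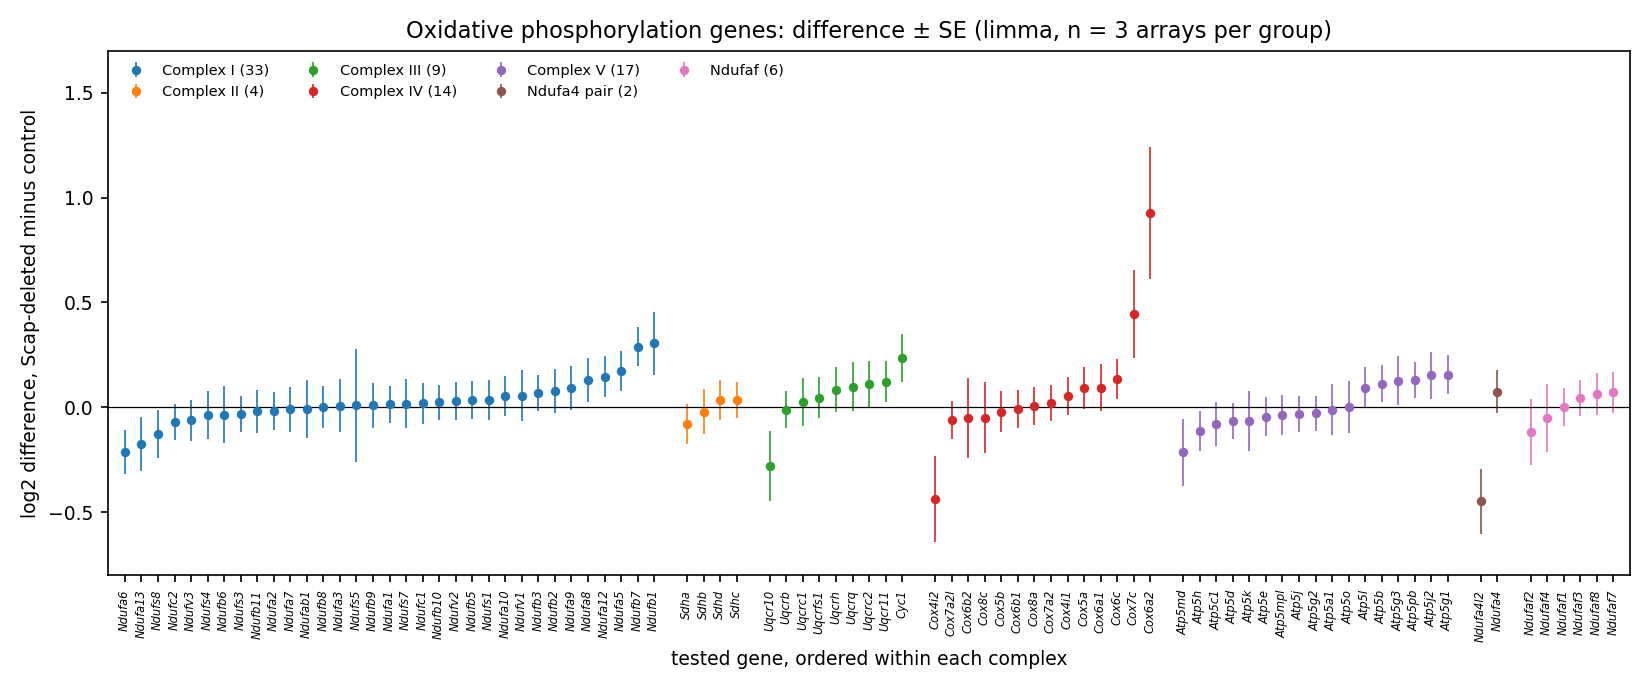
The log2 difference (Scap-deleted minus control, vertical axis) with its limma SE is plotted for the 85 tested genes, grouped by complex and ordered within it, from 3 arrays per group. Most genes lie close to 0, and Cox6a2 (0.93), Cox4i2 (-0.44), Cox7c (0.44) and Ndufa4l2 (-0.45) lie farthest from it.

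Groups that do not overlap, with all 3 Scap-deleted arrays on one side of all 3 controls, were found in 12 of the 85 genes (14.1%), against 11.8% of all genes tested. Of these 12, 10 were higher in Scap-deleted lung, where 6.11% of all genes were, and 2 were lower, where 5.72% were. The higher ones were Ndufa5, Ndufa12, Ndufb7 and Ndufb10 of complex I, Cyc1 of complex III, Cox6a2 and Cox6c of complex IV, and Atp5b, Atp5g1 and Atp5pb of complex V. Ndufa6 and Ndufa4l2 were the lower ones. Their sizes differed widely, from a log2 difference of 0.02 for Ndufb10 to 0.93 for Cox6a2, and a separation of 3 arrays from 3 cannot reach an exact p under 0.1. Ndufa5, Ndufa12, Ndufb7, Cox6c and Atp5pb had further probe sets above the brightness limit, and on all of those the groups overlapped.

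Complex I receives electrons from NADH through a flavin and a chain of iron-sulfur clusters, held by core subunits of the Ndufv and Ndufs names, around which sit accessory subunits of the Ndufa, Ndufb and Ndufc names. Of 34 genes 33 were tested, 21 with positive and 12 with negative differences, a median log2 difference of 0.02 and a range of -0.21 to 0.31; 5 positive and 3 negative differences exceeded their SE. The 6 tested core subunits were Ndufs1, Ndufs3, Ndufs7, Ndufs8, Ndufv1 and Ndufv2. On their brightest probe sets they had log2 differences from -0.13 (Ndufs8) to 0.05 (Ndufv1), all with overlapping groups. That of Ndufs8 was 0.00 without both arrays numbered 3. Other probe sets above the brightness limit gave 0.36, with no overlap, and 0.26 for Ndufv1. Those of Ndufs8 gave -0.10 to -0.21, and the one at -0.19 had no overlap. Ndufv1, the flavin-binding subunit, read 7165, 6003 and 7706 in controls and 7841, 6885 and 6885 in Scap-deleted lung. Ndufs1, which carries several iron-sulfur clusters, read 4851, 4280 and 4964 in controls and 4884, 4779 and 4764 in Scap-deleted lung. The SE of the log2 difference was 0.12 for Ndufv1 and 0.10 for Ndufs1.

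Ndufb7, an accessory subunit of the membrane arm, had the smallest p of the whole group. Its signal was 6491, 7212 and 7514 on the control arrays and 8418, 8746 and 8735 on the Scap-deleted arrays. Every Scap-deleted array was above every control, a log2 difference of 0.29 (SE 0.09, 95% interval 0.07 to 0.51, limma adjusted p = 0.739). Its other probe set, also above the brightness limit, read 4699 ± 547 and 4977 ± 403 (SD, n = 3), a log2 difference of 0.09, with overlapping groups. With the mean of all probe sets of a gene, its log2 difference was 0.19 (limma unadjusted p = 0.0772).

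The other complex I genes of smallest p went both ways. Ndufa6, an accessory subunit, read 11527, 11689 and 12926 in controls and 10437, 9512 and 11327 in Scap-deleted lung (log2 difference -0.21, SE 0.10). Ndufa5, an accessory subunit of the matrix arm, read 5510, 5055 and 5503 in controls and 5756, 5921 and 6465 in Scap-deleted lung (log2 difference 0.17, SE 0.09). In both, all Scap-deleted arrays lay on one side of the controls, although the second Ndufa5 probe set gave 0.01. Ndufb1, a small accessory subunit just inside the brightness limit, read 520.0, 470.9 and 372.6 in controls and 593.2, 487.8 and 596.5 in Scap-deleted lung, with overlap (log2 difference 0.31, SE 0.15). Ndufb11, the complex I probe set of highest signal, read 21315 ± 2055 in controls and 20977 ± 282 in Scap-deleted lung (SD, n = 3).

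Within complex I, single arrays moved a few genes more than the groups did. Ndufs5, which lies on the intermembrane side, read 2749, 3215 and 4953 in controls and 2573, 3923 and 4420 in Scap-deleted lung, so both arrays numbered 3 were the highest of their group and the log2 difference was 0.01 (SE 0.27). Ndufb10, by contrast, stayed between 4889 and 5032 on all 6 arrays. The 6 tested assembly factors, which help to build complex I without staying in it, had log2 differences of -0.12 to 0.07, and the one of smallest p, Ndufaf7, a methyltransferase that acts on a core subunit, read 1379 ± 111 and 1448 ± 45.9 (SD, n = 3). Ndufaf8 had a log2 difference of 0.06 on its brightest probe set and 0.37 on its second, also above the brightness limit; with the mean of both it was 0.21 (limma unadjusted p = 0.0443, adjusted p = 0.871).

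Complex II has 4 subunits, all encoded in the nucleus, and links the tricarboxylic acid cycle to the respiratory chain. All 4 had overlapping groups, with log2 differences between -0.08 and 0.04. Sdha, the flavoprotein that oxidises succinate, read 8713, 7733 and 8923 in controls and 7997, 8045 and 7901 in Scap-deleted lung. Sdhb, the iron-sulfur subunit, read 9125, 8887 and 10925 in controls and 9714, 9528 and 9168 in Scap-deleted lung. The membrane anchors Sdhc and Sdhd read 7149 ± 182 against 7331 ± 274 and 5521 ± 259 against 5657 ± 381 (control against Scap-deleted, SD, n = 3). Their 95% intervals reached from 81.1% of control for the lowest bound, that of Sdha, to 119.7% for the highest, that of Sdhd.

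In complex III, 7 of 9 genes had positive differences, and the median log2 difference was 0.08, or 106.0% of control; 3 positive differences and 1 negative one exceeded their SE. Cyc1, cytochrome c1, which hands electrons to cytochrome c, read 9703, 10542 and 8263 in controls and 11664, 10990 and 10755 in Scap-deleted lung. All Scap-deleted arrays were above all controls (log2 difference 0.24, SE 0.11, 95% interval -0.03 to 0.50, limma adjusted p = 0.859). Uqcr10, a small subunit, differed the other way, at 5032, 4581 and 5905 in controls and 4292, 3441 and 5159 in Scap-deleted lung (log2 difference -0.28, SE 0.17). Its groups overlapped, and its other probe sets above the limit gave log2 differences of -0.02 and -0.35. The core subunits Uqcrc1 and Uqcrc2 stood at 101.8% and 108.0% of control, Uqcr11 at 108.8%, and Uqcrb, a ubiquinone-binding subunit, at 99.2%. Uqcrfs1, the Rieske iron-sulfur protein, read 8255, 7976 and 7532 in controls and 8770, 7608 and 8175 in Scap-deleted lung.

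None of the widely expressed subunits of complex IV passed an unadjusted p of 0.05 by limma. Cox4i1, a structural subunit next to the catalytic core, read 33413, 30303 and 33133 in controls and 34032, 32792 and 33687 in Scap-deleted lung (log2 difference 0.05, SE 0.09). Cox5a and Cox5b stood at 106.7% and 98.6%, Cox6a1 at 106.7%, Cox6b1 at 99.4%, Cox7a2 at 101.5% and Cox8a at 100.3% of control. On these brightest probe sets the groups of each overlapped. The second Cox6b1 probe set, also above the brightness limit, read 13279, 13266 and 14213 in controls and 12837, 12269 and 12193 in Scap-deleted lung. There all Scap-deleted arrays were below the controls (91.5% of control). With the mean of the 3 Cox8a probe sets the log2 difference was 0.35 (limma unadjusted p = 0.0244, adjusted p = 0.855). The dimmest of these 3, below the brightness limit, read 122.6, 112.8 and 140.8 in controls and 294.4, 146.9 and 311.1 in Scap-deleted lung. Cox6c, at 28484, 25021 and 28654 against 31044, 29291 and 29738, had all Scap-deleted arrays above the controls (109.8% of control). Its second probe set stood at 105.2% with overlap. Cox7a2l, a paralogue that takes part in joining complexes into supercomplexes, stood at 95.9% of control. Cox7c was read by a dim probe set, at 642.4, 838.1 and 770.4 in controls and 794.1, 1387 and 948 in Scap-deleted lung; these overlapped (log2 difference 0.44, SE 0.21).

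**Figure D2:**
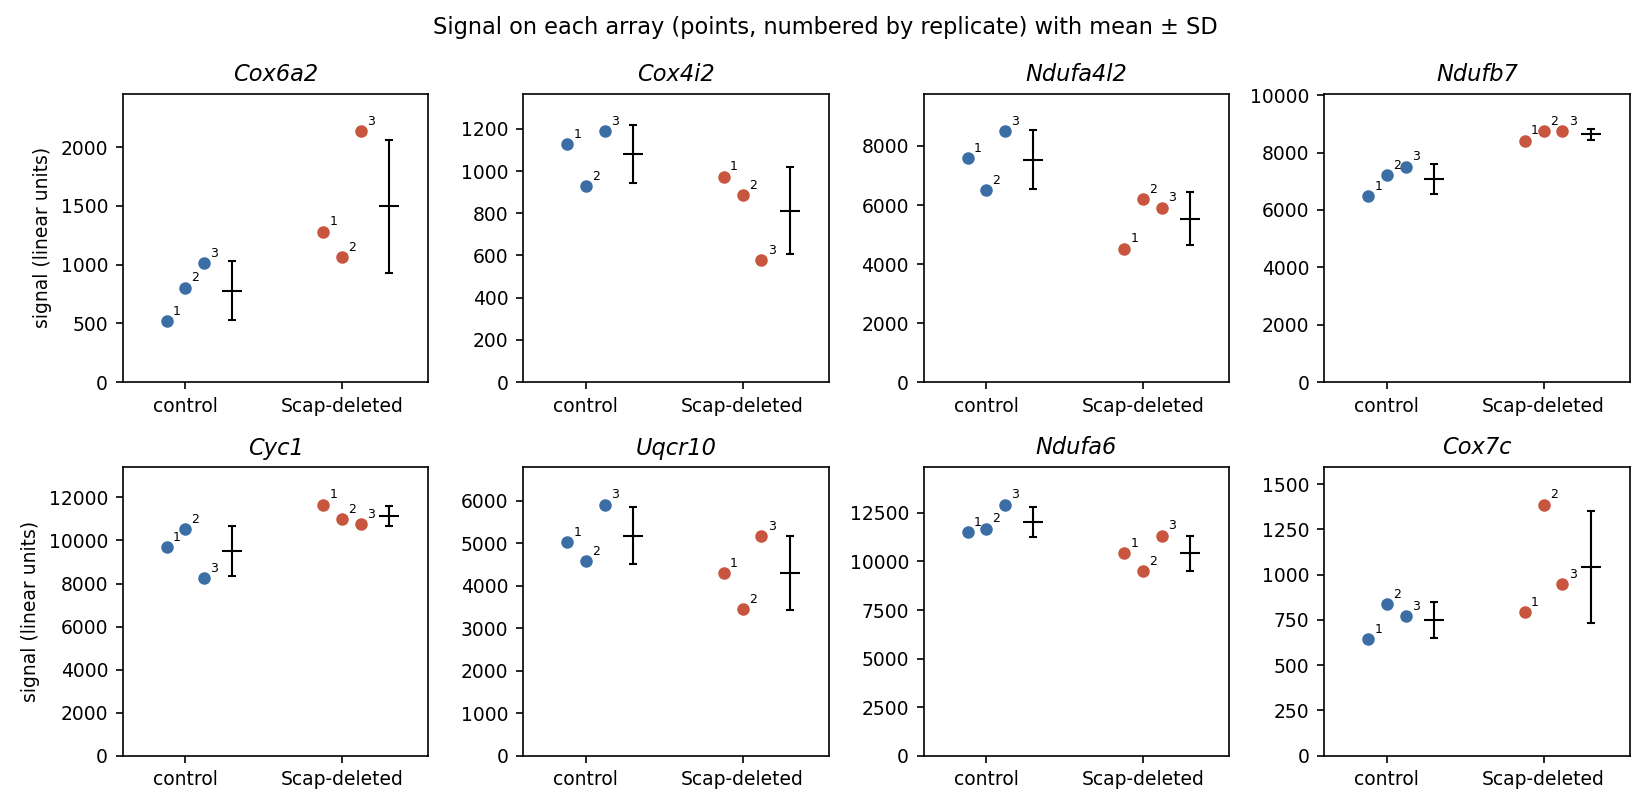
Linear signal of 8 genes on each array is plotted by group, control (blue) and Scap-deleted (red), with the replicate number beside each point and the mean ± SD (n = 3 arrays) in black. The groups do not overlap for Cox6a2, Ndufa4l2, Ndufb7, Cyc1 and Ndufa6, and they overlap for Cox4i2, Uqcr10 and Cox7c.

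Among the 85 tested genes, tissue-restricted paralogues held 3 of the 4 largest absolute differences, those of Cox6a2, Ndufa4l2 and Cox4i2. The other was that of Cox7c. Brightness is mixed into this ranking. After Ndufb1, the dimmest tested genes were Cox7c, Cox4i2 and Cox6a2, at mean signals of 869.9, 922.9 and 1036, and dimmer genes vary more on these arrays. The restricted paralogues Cox6b2 and Cox8c both had log2 differences of -0.05. Cox6a2, the heart and skeletal muscle form of subunit VIa, read 518.8, 803.7 and 1016 on the control arrays and 1282, 1066 and 2135 on the Scap-deleted arrays. All Scap-deleted arrays were above all controls, by a narrow margin between Scap-deleted replicate 2 and control replicate 3. The log2 difference was 0.93 (SE 0.31, 95% interval 0.19 to 1.66, limma adjusted p = 0.751; 0.317 with the replicate block). Its second probe set, below the brightness limit, read 27.5, 86.1 and 193.8 in controls and 80.0, 324.0 and 203.1 in Scap-deleted lung, with overlap; with the mean of both probe sets the gene lay below the limit and was not tested. The ubiquitous form Cox6a1 read 38966 ± 4325 and 41448 ± 2021 (SD, n = 3), a log2 difference of 0.09 (SE 0.11).

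The 2 other muscle forms of complex IV lay below the brightness limit and were not tested. Cox7a1 read 359.4, 222.3 and 511.3 in controls and 437.5, 360.1 and 490.2 in Scap-deleted lung, and Cox8b read 246.8, 43.5 and 529.6 against 497.4, 153.8 and 541.4. Their groups overlapped (log2 difference 0.95 for Cox8b, larger than that of any of the 85 tested genes), and within each group both were lowest on the array numbered 2 and highest on the array numbered 3. Markers of heart and skeletal muscle moved between arrays as well: 20 of 20 listed genes had a probe set and none was at 0, 11 of the 12 tested had positive differences, and none of the 12 passed an unadjusted p of 0.05. Their median relative to each gene's mean was 0.02, -0.21 and 0.02 on the log2 scale in controls and 0.20, -0.26 and 0.20 in Scap-deleted lung, again lowest on the arrays numbered 2; Cox6a2 was lowest on array 2 among the Scap-deleted arrays and on array 1 among the controls. Summed over all 20, the signal ran from 61360 to 73510.5 on control arrays and from 60786 to 98163 on Scap-deleted arrays. Nppa, the atrial natriuretic peptide gene, read 11125 on Scap-deleted replicate 1 and at most 350.4 on the 5 other arrays. The part of muscle tissue in the Cox6a2 difference was not tested.

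Ndufa4l2 was the gene of smallest p among those lower in Scap-deleted lung. It encodes a relative of Ndufa4, is induced in low oxygen by hypoxia-inducible factor, and is known as a pericyte gene in lung. It read 7584, 6510 and 8503 in controls and 4520, 6188 and 5909 in Scap-deleted lung, so that every Scap-deleted array was below every control. The log2 difference was -0.45 (SE 0.16, 95% interval -0.81 to -0.08), or 73.3% of control (limma adjusted p = 0.778). Ndufa4, which carries a complex I name but is found with complex IV, read 7315, 7045 and 7572 in controls and 8359, 7839 and 6965 in Scap-deleted lung, with overlap (log2 difference 0.08, SE 0.10).

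Cox4i2, the paralogue of Cox4i1 known for its expression in lung and its induction by hypoxia, pointed the same way with overlapping groups. Its signal was 1126, 926.7 and 1189 in controls and 973.6, 885.1 and 578.2 in Scap-deleted lung, lowest on Scap-deleted replicate 3 (log2 difference -0.44, SE 0.20, 95% interval -0.92 to 0.04, limma adjusted p = 0.849). Cox4i2 and Ndufa4l2 each had 1 probe set with a single symbol. Of 7 pericyte and vascular smooth muscle markers, all tested and none at 0, 5 differed negatively and the median gene read 95.8% of control. Their summed signal was 36847 to 42760 over the control arrays and 33916 to 42128 over the Scap-deleted ones. The log2 differences of these 7 ran from -0.20, that of Higd1b (87.0% of control), to 0.10, with 2 of them positive. Pdgfrb stood at 99.4% of control. Of the endothelial markers 7 of 8, all tested, differed negatively; the median gene read 88.3% of control, and their summed signal was 85368 to 94528 over the control arrays and 78518 to 85384 over the Scap-deleted ones. Whether the number of such cells bears on Cox4i2 or Ndufa4l2 was not tested.

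The remaining restricted paralogues, Cox6b2, Cox8c and Cox7b2, had overlapping groups. Cox6b2, a testis form, read 4967, 3434 and 3384 in controls and 3585, 3189 and 4529 in Scap-deleted lung, and Cox8c, also known from testis, read 1524 ± 150 and 1493 ± 333 (SD, n = 3). Both had log2 differences of -0.05, with 95% intervals of -0.50 to 0.39 for Cox6b2 and -0.45 to 0.35 for Cox8c. Cox7b2 lay far below the brightness limit, at 69.5, 8.3 and 4.7 in controls and 10.6, 26.4 and 74.5 in Scap-deleted lung (log2 difference 0.98, not tested). Whether paralogues of a pair differ in their response was not tested.

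**Figure D3:**
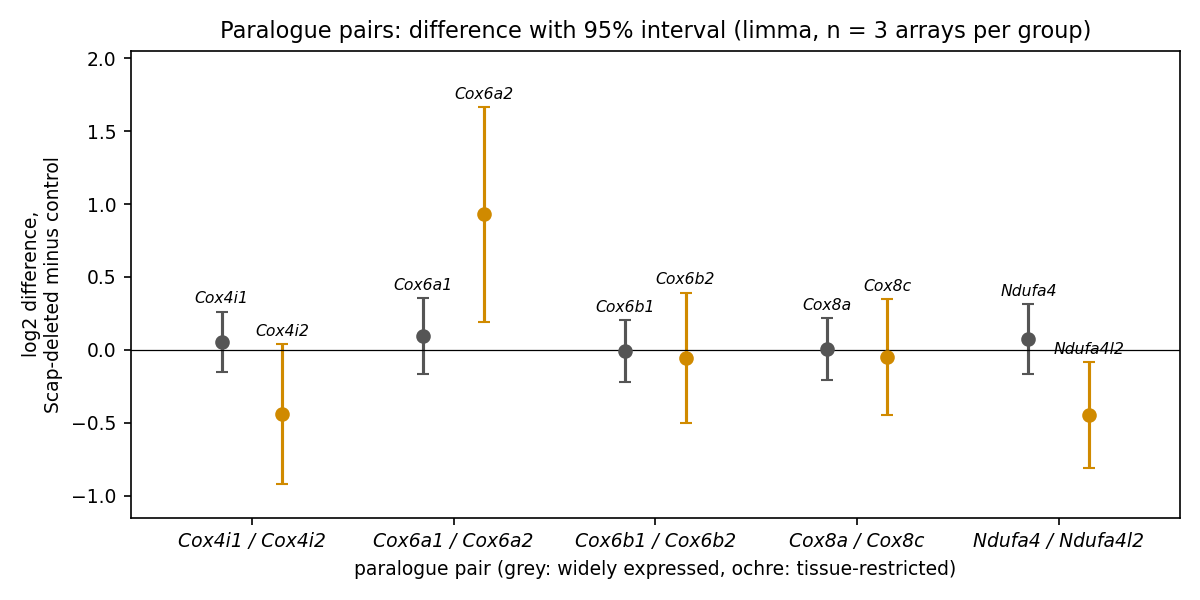
For 5 paralogue pairs the log2 difference (Scap-deleted minus control, vertical axis) is plotted with its 95% interval from limma, n = 3 arrays per group, the widely expressed gene in grey and the tissue-restricted one in ochre. The intervals of the grey genes all include 0, and those of Cox6a2 (0.19 to 1.66) and Ndufa4l2 (-0.81 to -0.08) do not; these intervals are not adjusted for the number of genes.

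In complex V, 7 of 17 genes had positive and 10 negative differences, with a median log2 difference of -0.03, or 98.0% of control; 5 positive and 2 negative differences exceeded their SE. Atp5b, the catalytic beta subunit, read 35747, 34265 and 35797 in controls and 40164, 36777 and 37528 in Scap-deleted lung, all above the controls (108.1% of control, SE 0.09 on the log2 scale). Atp5a1, the alpha subunit that surrounds the rotor together with beta, read 23185, 19762 and 25069 in controls and 24400, 22224 and 20692 in Scap-deleted lung, with overlap (99.2% of control). Atp5pb, a subunit of the peripheral stalk, stood at 109.5% with no overlap, and its second probe set at 101.6% with overlap. Atp5j2, of the membrane part, stood at 111.3% with overlap. Its other probe sets stood at 100.2%, with overlap, and at 122.7%, with none.

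Atp5g1, Atp5g2 and Atp5g3 encode the same mature subunit c, which forms the rotating ring, and differ in the mitochondrial targeting peptide. Atp5g1 read 4052, 3675 and 3879 in controls and 4583, 4150 and 4204 in Scap-deleted lung, with no overlap (log2 difference 0.16, SE 0.09). Atp5g2 read 15041 ± 288 and 14745 ± 264, and Atp5g3 read 33421 ± 3863 and 36399 ± 2696 (SD, n = 3), both with overlap. A far dimmer Atp5g2 probe set, also above the brightness limit, differed from this. It read 371.5, 467.7 and 508.3 in controls and 676.9, 623.1 and 689.7 in Scap-deleted lung, with no overlap (log2 difference 0.57). Atp5md, a small subunit involved in ATP synthase dimers, read 4412, 4515 and 4838 in controls and 5061, 3331 and 3658 in Scap-deleted lung, the most negative difference of the complex (-0.21, SE 0.16), with Scap-deleted replicate 1 above all controls.

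On single arrays the complexes did not all move together. The median of the complex I genes, relative to each gene's mean over the arrays, was 0.01, -0.05 and 0.02 on the log2 scale in controls and 0.03, -0.03 and 0.02 in Scap-deleted lung. Complex V was 0.02, -0.07 and 0.02 in controls and 0.12, -0.01 and -0.02 in Scap-deleted lung, so its highest value came from Scap-deleted replicate 1, where complex II was at -0.01. On Scap-deleted replicate 3 complex III was at its highest, 0.10, while complexes II, IV and V were at -0.04, -0.02 and -0.02. Control replicate 2 was the lowest control array in all 5 complexes, and the same array was lowest among controls for the ribosomal protein genes (-0.10) and over all genes tested (-0.03). Leaving it out turned the complex I median log2 difference from 0.02 to -0.03. The complex IV median difference, 0.01 on all arrays, was 0.06 without control replicate 1, without Scap-deleted replicate 2, or without both arrays numbered 3.

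**Figure D4:**
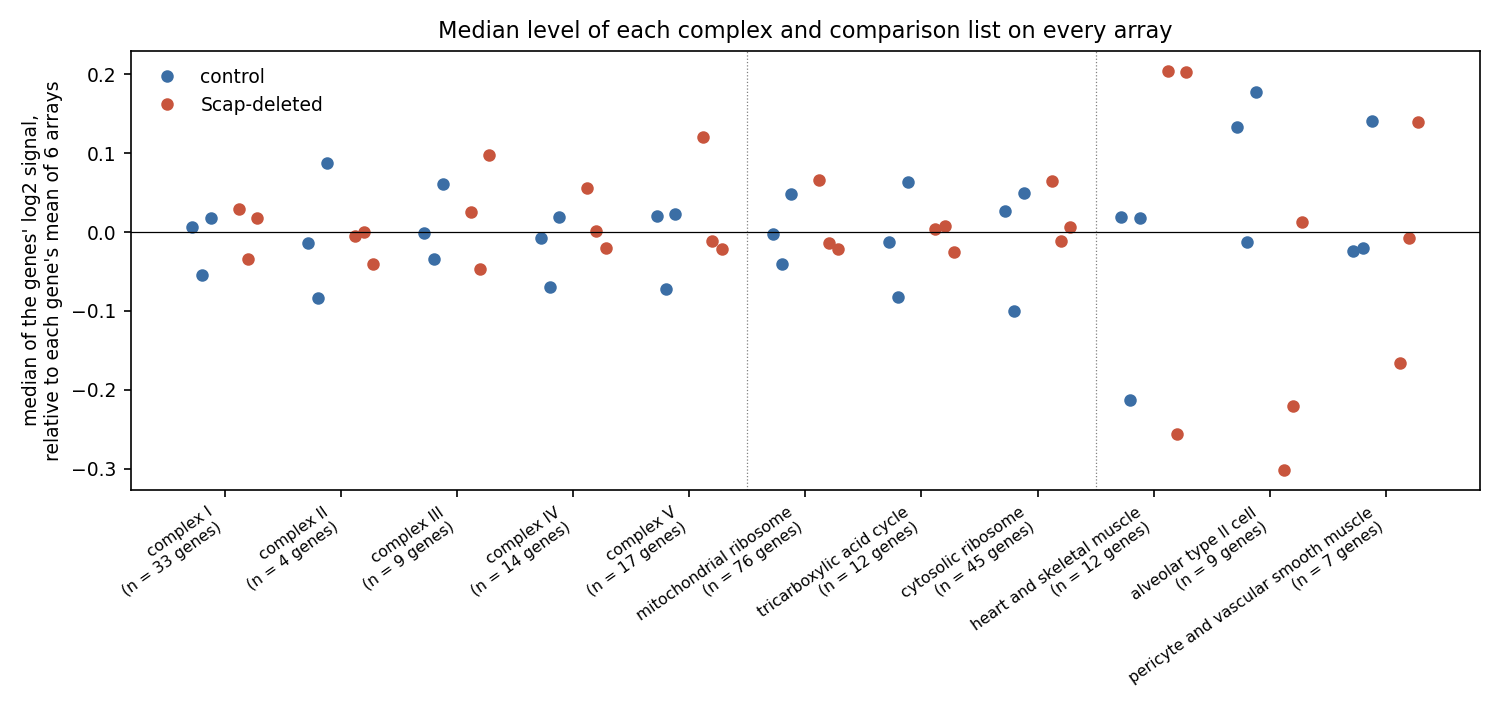
Each point is the median, over the tested genes of a complex or list, of log2 signal relative to each gene's mean over 6 arrays (vertical axis), for control (blue) and Scap-deleted (red) arrays in order of replicate number. The 5 complexes lie between -0.08 and 0.12 with overlapping groups, while heart and skeletal muscle markers span -0.26 to 0.20.

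Genes that build, feed or regulate the respiratory chain had list medians close to 0 as well. None of the genes in the following lists was called by limma; at an unadjusted p of 0.05, 1 complex I assembly factor and 2 mitochondrial ribosome genes were lower, 2 cytosolic ribosome genes were higher, and no gene of the other lists passed. With the replicate block none was called either; Nrf1, Ttc19 and Mrps18b (higher) and Sco2 (lower) joined the genes at an unadjusted p of 0.05, against 8.7% of all genes. The tricarboxylic acid cycle, which supplies NADH and succinate, had 6 of 12 tested genes positive, with log2 differences of -0.09 to 0.17 and a median of -0.01. Complex IV assembly and copper delivery had 6 of 17 positive (median -0.03), and assembly factors of complexes II, III and V had 6 of 12 (median 0.01). Complex I assembly factors outside the Ndufaf names had 4 of 7 positive (median 0.07). One of them, Tmem126b, read 685.1, 560.8 and 505.8 in controls and 430.5, 428.8 and 465.7 in Scap-deleted lung, with no overlap (log2 difference -0.39, SE 0.13, unadjusted p = 0.017). Cytochrome c itself, Cycs, stood at 99.3% of control, and the adenine nucleotide translocases Slc25a4 and Slc25a5, which export ATP, at 101.2% and 94.9%.

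Of 18 tested regulators of mitochondrial biogenesis, 9 had positive differences, and the median was 0.00. Ppargc1a, the coactivator that raises mitochondrial gene expression, read 632.3, 594.3 and 811.6 in controls and 811.6, 579.4 and 1425 in Scap-deleted lung, its spread set by Scap-deleted replicate 3. Nrf1, which binds promoters of respiratory genes, read 1131, 1477 and 1172 in controls and 1358, 1889 and 1451 in Scap-deleted lung, with overlap (log2 difference 0.31, SE 0.16). Within each replicate number the Scap-deleted array was above the control, and with the replicate block the SE was 0.09 (limma unadjusted p = 0.0139, adjusted p = 0.452). Tfam, which packages and transcribes mitochondrial DNA, stood at 103.1% of control. The mitochondrial ribosome genes had 39 of 76 positive with a median of 0.01, and the gene of smallest p, Mrpl38, stood at 76.7% of control. Cytosolic ribosome genes had 26 of 45 positive with a median of 0.02; Rps25 had their smallest p, at 128.4% of control.

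The promoters were searched for short sequence words, which the selection by name did not use. RefSeq promoters of assembly GRCm38.p6, 250 bases before to 50 after the start, were matched by symbol for 74 of the 91 genes, taking the first listed for a gene. Words of transcription factors known for respiratory gene promoters were searched on both strands, among them that of NRF1 (GCGCATGC). It was present in 11 of 74 (14.9%), against 2.8% of 27025 promoters and 5.62% of the 8904 promoters of genes tested here. The ETS word of GABP (CCGGAAG) was present in 24.3%, against 9.12% and 18.6%, and the YY1 word (AAGATGGC) in 12.2%, against 2.88% and 4.87%. A TATA word (TATAAA) was present in 10.8%, against 14.2% and 6.86%, and the core word of the hypoxia response element (ACGTG) in 25.7%, against 19.7% and 26.1%. The median GC content was 59.0%, against 52.7% of all promoters, and words rich in G and C are met more often in such sequence. No word was in more than 25.7% of the 74 promoters, and ACGTG was no more frequent in them than among genes tested. Cox4i2, Cox6a2 and Ndufa4l2 had no matched promoter, so these counts do not cover them. A match describes letters in this window and is not a bound site.

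The following stretches before the start show the NRF1 word on either strand, in capitals with the flanks in lower case, in a gene of complexes I, II, IV and V each; in the 2 complex III genes that hold it, Uqcrc1 and Uqcr11, it lies across or after the start. The coordinates of the stretches, on GRCm38.p6, are chr15:82354342-82354399 on the minus strand for Ndufa6, chr4:140961192-140961249 on the plus strand for Sdhb, chr5:115349088-115349145 on the minus strand for Cox6a1 and chr15:102671057-102671114 on the minus strand for Atp5g2, each written 5′ to 3′ along the gene.
Ndufa6: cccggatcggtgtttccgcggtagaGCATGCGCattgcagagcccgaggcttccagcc
Sdhb: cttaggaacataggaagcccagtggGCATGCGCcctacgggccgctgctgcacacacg
Cox6a1: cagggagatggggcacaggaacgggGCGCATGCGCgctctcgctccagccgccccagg
Atp5g2: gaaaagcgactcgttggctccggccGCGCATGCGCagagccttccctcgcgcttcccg
In Ndufa6 and Sdhb the word lies on the other strand, as GCATGCGC, and in Cox6a1 and Atp5g2 it lies on both strands in overlapping matches. The first match begins 83, 54, 162 and 42 bases before the start in Ndufa6, Sdhb, Cox6a1 and Atp5g2. Among the 10 tested genes with the NRF1 word, 5 had positive and 5 negative differences, with a median log2 difference of 0.00 and a range of -0.21, that of Ndufa6, to 0.13. Positive differences were seen in 9 of 18 tested genes with the ETS word and 8 of 9 with the YY1 word. They were seen in 12 of 17 with the hypoxia core word and 4 of 6 with the TATA word, beside 50 of all 85 tested genes. The medians for these 4 words lay between 0.00 and 0.04, and no relation of word to direction was tested.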

How the data were processed

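Per the labels, biotin-labelled RNA of 6 whole-lung samples was put on MOE430 V2 chips. The authors deposited linear signal intensity values for 45101 probe sets. RMA is the tool named in the submitters' processing notes, yet the values are linear and differ in quantiles, and each array's mean after trimming 2% at each end is 1500; no source used here describes a background correction.

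Signals were taken to log2 without a pseudocount. The 64 control probe sets were set aside, and probe sets with 1 symbol in the platform annotation (34945 of 45037; 932 carry several, 9160 none) were named; 34741 of their Entrez IDs matched GRCm38.p6 and no symbol changed. Ndufa11 and Ndufs6, among others, are read only by probe sets with several symbols and were not analysed here. Of the 85 tested probe sets, 14 end in s_at and 3 in x_at, which can read near-identical copies. Genes above 497.8 units were compared by lmFit and eBayes of limma 3.58.1 (R 4.3.3), with 4 residual degrees of freedom and Benjamini-Hochberg adjustment over 10972 genes. The fit was tested on simulated data with changes far larger than most seen here. That simulation did not examine differences as small as those of most of these genes.

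The members, gene lists and tests were chosen with earlier results of these data known. Named genes are, per complex, the 4 of smallest p and the brightest, all of complex II, Cyc1, paralogue sets, 1 Ndufaf gene, and the gene of smallest p under 0.05 of each other list; the others were chosen after their values were seen. None of the listed mitochondrially encoded genes had a matching symbol, so they were not analysed here; nor was Cox7b. Erythroid markers (2 tested) had a median at 83.8% of control, brown fat (1 tested) 110.4%, alveolar type II 89.6%, club 85.7%, ciliated 91.0%, leukocyte 106.2%, fibroblast 97.7% and smooth muscle 104.0%.

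Deviations from group means correlated at 0.17, 0.20 and 0.43 between samples of the same replicate number. Control 2 with Scap-deleted 1 reached 0.18, so whether the numbers in the titles pair the samples is not settled. The values given come from the fit without pairing, except where the replicate block is named. Alternatives were another normalization, filter, pseudocount, probe set rule and variance model, the block, and left-out arrays.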

Additional observations from a re-analysis of the deposited data

How the results depend on the processing

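No oxidative phosphorylation gene was called by limma under any alternative run; the smallest adjusted p among them ranged from 0.317 with the replicate block (Cox6a2) to 0.999 without Scap_deleted replicate 2. The count at an unadjusted p of 0.05 was 3 of 85 as reported, against 5.92% of all genes tested. It was 5 with a mean-variance trend, against 5.84% of all genes, and 5 with the replicate block, against 8.7%. With single arrays left out it was 1 to 5: 1 without control replicate 1, against 4.9%, and 5 without Scap_deleted replicate 1, against 4.93%. The block changed no call. With both arrays numbered 3 left out the count was 2, against 7.59% of all genes, and the complex IV median log2 difference was 0.0604. With single arrays left out that median ran from -0.0029 to 0.0613, and the complex I median from -0.0284 to 0.0395. Complexes II, III and V and the median of all 85 genes moved by less than the spread between arrays under every alternative. A change of sign was counted as a reversal only where the reported difference exceeded its SE, although counts of positive and negative genes take in all differences; without both arrays numbered 3, 20 of 85 genes changed sign, 1 of them a difference larger than its SE (Ndufs8, -0.13 as reported and 0.0021 there), and with the mean of all probe sets 7 of 83 did. The other tested genes whose difference exceeded its SE kept their sign under every alternative that tested them. With the mean of all probe sets the count at an unadjusted p of 0.05 was 3 of 83, against 5.63% of all genes. These were partly other genes: Ndufb7 no longer passed, Cox6a2 was not tested, and Cox8a and Ndufaf8 joined Ndufa4l2. Of 69 further probe sets above the brightness limit, 24 had the opposite sign to the one used. Over the 69, the absolute difference from the one used had a median of 0.08 log2 and a largest value of 0.60, that of Atp5g2. With 3 arrays per group, differences inside the intervals given are not resolved, and without detection calls dim probe sets such as those of Cox7a1, Cox8b and Cox7b2 may not lie above background.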
